A study of Mus musculus with 20 samples.

Results

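The FGF ligands described here are 9 genes of the fibroblast growth factor family, Fgf3, Fgf4, Fgf5, Fgf8, Fgf9, Fgf10, Fgf15, Fgf17 and Fgf18, out of 54446 gene IDs in the expression tables. They were taken by gene name, and their TPM (a transcript abundance corrected for length and scaled to the same total in each library) was compared across 5 groups of 3 bulk RNA-seq libraries. A mean of at least 1 TPM over the 15 libraries was needed for testing, which 8 ligands and 14290 genes in all reached. Fgf5, with a mean of 0.752 TPM, did not.

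All 5 groups were grown from mouse embryonic stem cells of strain F1G4 that carry fluorescent reporters at T (T::H2B-mCherry) and at Sox2 (Sox2::H2B-Venus), so each structure came from 1 cell line. Aggregates in every group received a pulse of 3 µM CHIR99021, an inhibitor of GSK3 that activates WNT signalling, after 48 h. The 96h group, the TLS (trunk-like structure) precursor, was collected at 96 h with 10 structures pooled per library. The other groups were collected at 120 h with 6 structures per library: Gastruloid, made without Matrigel by the Beccari protocol; TLSMG, in Matrigel, a basement membrane gel; TLSMGC, in Matrigel with CHIR; and TLSMGCL, in Matrigel with CHIR and LDN, an inhibitor of BMP receptors. Doses and times of the added CHIR and of LDN are not given in the sources used here. Only structures chosen for their asymmetric pole were pooled, and the values describe these.

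FGF ligands are secreted proteins that bind receptor tyrosine kinases together with heparan sulfate, and the receptors signal through the ERK kinases. In the elongating trunk of the embryo, Fgf8 and related ligands are made in the tailbud and the presomitic mesoderm, where FGF signalling forms a gradient that sets where somites form and holds back differentiation. Fgf4 acts with Fgf8 in the presomitic mesoderm. Sprouty, Spred and dual-specificity phosphatase genes are induced by the pathway and dampen it.

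The 9 genes lie on 6 chromosomes (coordinates of the tables, mouse build mm10). Fgf3 (7, 144838083 to 144844436), Fgf4 (7, 144847367 to 144865243) and Fgf15 (7, 144896531 to 144900953) are direct neighbours on the plus strand. They span 62871 bases, with 2931 bases between Fgf3 and Fgf4 and 31288 between Fgf4 and Fgf15. Fgf9 (14, 58070547 to 58112720, plus strand) and Fgf17 (14, 70636203 to 70642268, minus strand) share a chromosome but lie far apart. Fgf8 (19, 45736798 to 45742915) and Fgf18 (11, 33117430 to 33147400) are on the minus strand, and Fgf5 (5, 98254184 to 98277030) and Fgf10 (13, 118669791 to 118792115) on the plus strand.

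Of the 9 ligands, 6 matched a RefSeq promoter (assembly GRCm38.p6), here the 250 bases before the annotated start. Fgf8, Fgf15 and Fgf17 did not match. Shown are the windows of Fgf4, from the neighbouring trio that was highest at 96 h, and of Fgf18 and Fgf9, which fell and rose when CHIR was added. Capitals mark CpG dinucleotides.
Fgf4 (chr7:144861136-144861385, plus strand): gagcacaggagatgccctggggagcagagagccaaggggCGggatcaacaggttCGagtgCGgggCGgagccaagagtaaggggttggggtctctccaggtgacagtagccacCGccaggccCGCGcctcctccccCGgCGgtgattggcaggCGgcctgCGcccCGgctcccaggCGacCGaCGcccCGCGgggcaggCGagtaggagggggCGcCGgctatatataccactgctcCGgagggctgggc
Fgf18 (chr11:33147401-33147650, minus strand): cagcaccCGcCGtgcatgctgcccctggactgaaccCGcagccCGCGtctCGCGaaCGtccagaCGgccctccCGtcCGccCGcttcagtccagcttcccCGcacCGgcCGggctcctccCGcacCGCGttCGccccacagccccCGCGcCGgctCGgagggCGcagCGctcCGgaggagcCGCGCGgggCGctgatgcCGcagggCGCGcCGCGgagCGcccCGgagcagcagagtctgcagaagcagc
Fgf9 (chr14:58072436-58072685, plus strand): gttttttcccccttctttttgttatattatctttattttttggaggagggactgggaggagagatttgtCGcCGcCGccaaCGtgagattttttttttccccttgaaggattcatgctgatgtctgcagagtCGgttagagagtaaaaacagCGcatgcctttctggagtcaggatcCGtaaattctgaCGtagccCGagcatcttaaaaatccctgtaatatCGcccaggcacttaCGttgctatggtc

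The Fgf18 window held 37 CpG and was 77.2% G or C, and 2.2% of the 32851 promoters in the table held at least as many CpG. Fgf4 had 21 CpG at 71.2% G or C, and Fgf9 had 11 at 44.8%, beside medians of 6 CpG and 52.4% over all promoters. The windows of Fgf4 and Fgf9 start inside the longer GENCODE gene models of those genes, and no window shown overlaps an annotated exon of its own gene. Exons of other genes were not checked. On both strands, CTTTGA, the core bound by TCF/LEF factors, was found in the Fgf3 window only, 197 bases before the RefSeq start, and is in 13.8% of all promoters. The Fgf3 window, not shown, runs from 144838362 to 144838611. It lies inside the GENCODE gene model of Fgf3 and overlaps an annotated exon. TCACACC, a T-box sequence, was found in the Fgf5 window only, at 82 bases, and is in 3.3% of all promoters. Neither TTTATGG (CDX, in 2.4% of promoters) nor CACGTG (E-box, in 6.0%) was found in the 6 windows.

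Libraries of 1 group correlated with each other at r = 0.985 to 0.991 over log2(TPM + 1), and libraries of different groups at 0.939 to 0.988. Between 13688 and 14494 genes reached 1 TPM per library. Relative sequencing depth, taken as coverage per FPKM in genes with 1 transcript, ran from 3.12 to 6.84, and the labels give a minimum of 23700000 fragments. The labels do not say that the 3 libraries of a group came from separate cultures, so p-values measure the spread between these pools, which may be technical. Depth over the ligands differed widely: mean read depth over the exons was 22.9 to 115 for Fgf8, but 0.616 to 3.78 for Fgf9 and 0.0703 to 0.76 for Fgf10. For Fgf9 this depth was 11.6% to 16.6%, and for Fgf10 at most 5.96%, of that of a single-transcript gene with the same FPKM, so the TPM of these 2 genes cannot be set beside those of the other ligands.

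The labelled cell types were checked with marker lists. The 6 presomitic and tailbud markers (T, Tbx6, Msgn1, Hes7, Nkx1-2 and Wnt3a) had summed levels between 650 and 1050 TPM in the 96h libraries. Their sums were 41.8 to 82.9 TPM for Gastruloid and 77.9 to 103 for TLSMG, against 204 to 274 with CHIR and 201 to 231 with CHIR and LDN. Msgn1 was under 1 TPM in every Gastruloid library. The sums of the 6 neural tube markers ran the other way, at 233 to 327 for Gastruloid and 142 to 218 for TLSMG. The 96h, TLSMGC and TLSMGCL libraries had 54.6 to 67.8, 42.8 to 52.6 and 50.4 to 58.8 TPM, and Pax6 and Olig2 were under 1 TPM in all of them. The 6 somite markers summed to between 538 and 1040 TPM in all 15 libraries. Of them, Pax1 was under 1 TPM in every 96h, TLSMGC and TLSMGCL library, and Tbx18 in every TLSMGC and TLSMGCL library. The feeder, surface ectoderm and erythroid lists were at most 32.5, 2.19 and 1.32 TPM. In bulk libraries, fewer cells of a type and less RNA per cell cannot be told apart.

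The ligands together were most abundant at 96 h, and their make-up differed among the 120 h groups. The summed TPM of the 9 genes was 248 ± 28.9 at 96 h (SD, n = 3), 82.5 ± 16.2 in Gastruloid, 79.9 ± 8.63 in TLSMG, 86.5 ± 5.85 in TLSMGC and 76.8 ± 6.8 in TLSMGCL. The lowest 96h library, at 216 TPM, was above the highest 120 h library, at 95.6. Fgf8 had a mean share of the sum of 27.9% at 96 h and 29.1%, 31.9%, 34.8% and 37.1% in the 120 h groups in the same order. Fgf18 made up 40.3% of the sum in Gastruloid and 4.39% in TLSMGC, and Fgf17 10.6% and 32.2%. The sums and shares are descriptions and were not tested, and they use the TPM of Fgf9 and Fgf10 as deposited.

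**Figure D1:**
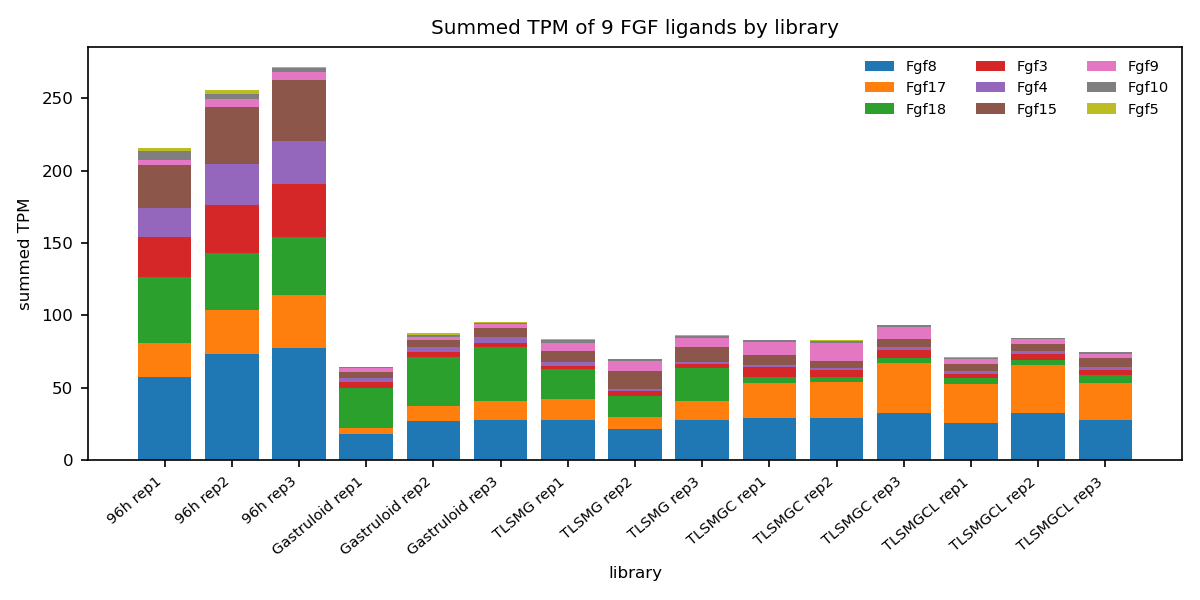
Summed TPM of the 9 FGF ligands (vertical axis) in each of the 15 libraries (horizontal axis), stacked by ligand. The 96h bars reach 216 to 272 TPM and all 120 h bars stay at or under 95.6, with Fgf18 wide in Gastruloid and Fgf17 wide in TLSMGC and TLSMGCL.

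From 96 h to 120 h, 7 of the 8 tested ligands fell in Gastruloid and 7 of 8 fell in TLSMG. In the background, 20.8% of all tested genes rose and 20.5% fell in Gastruloid against 96h (41.2% changed in either direction) and 12.5% fell and 33.5% rose in TLSMG against 96h (46% in either direction). After median-of-ratios scaling, which moved the median of all genes in the latter comparison from 0.14 to -0.02, 3134 genes rose and 3342 fell in place of 4792 and 1785, and the same ligands were called. The median log2 difference of the 8 ligands was -1.62 in Gastruloid and -1.35 in TLSMG, beside 0 and 0.14 over all tested genes. The exception in Gastruloid was Fgf18, at -0.33 (limma, adjusted p = 0.119), and in TLSMG it was Fgf9, at 0.31 (adjusted p = 0.108). Both comparisons use the same 96h libraries. The summed presomitic and tailbud markers were also lower in every 120 h library, and the part of these markers in the fall was not tested.

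In TLSMGC against 96h, 6 ligands fell and 1, Fgf9, rose (20.1% and 20.6% of all genes, 40.7% either way), and Fgf17 had a difference of -0.10 (adjusted p = 0.828). In TLSMGCL against 96h, 7 ligands fell, beside 22.1% of genes that fell, 17.4% that rose and 39.5% either way, and Fgf17 had -0.07 (adjusted p = 0.888).

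**Figure D2:**
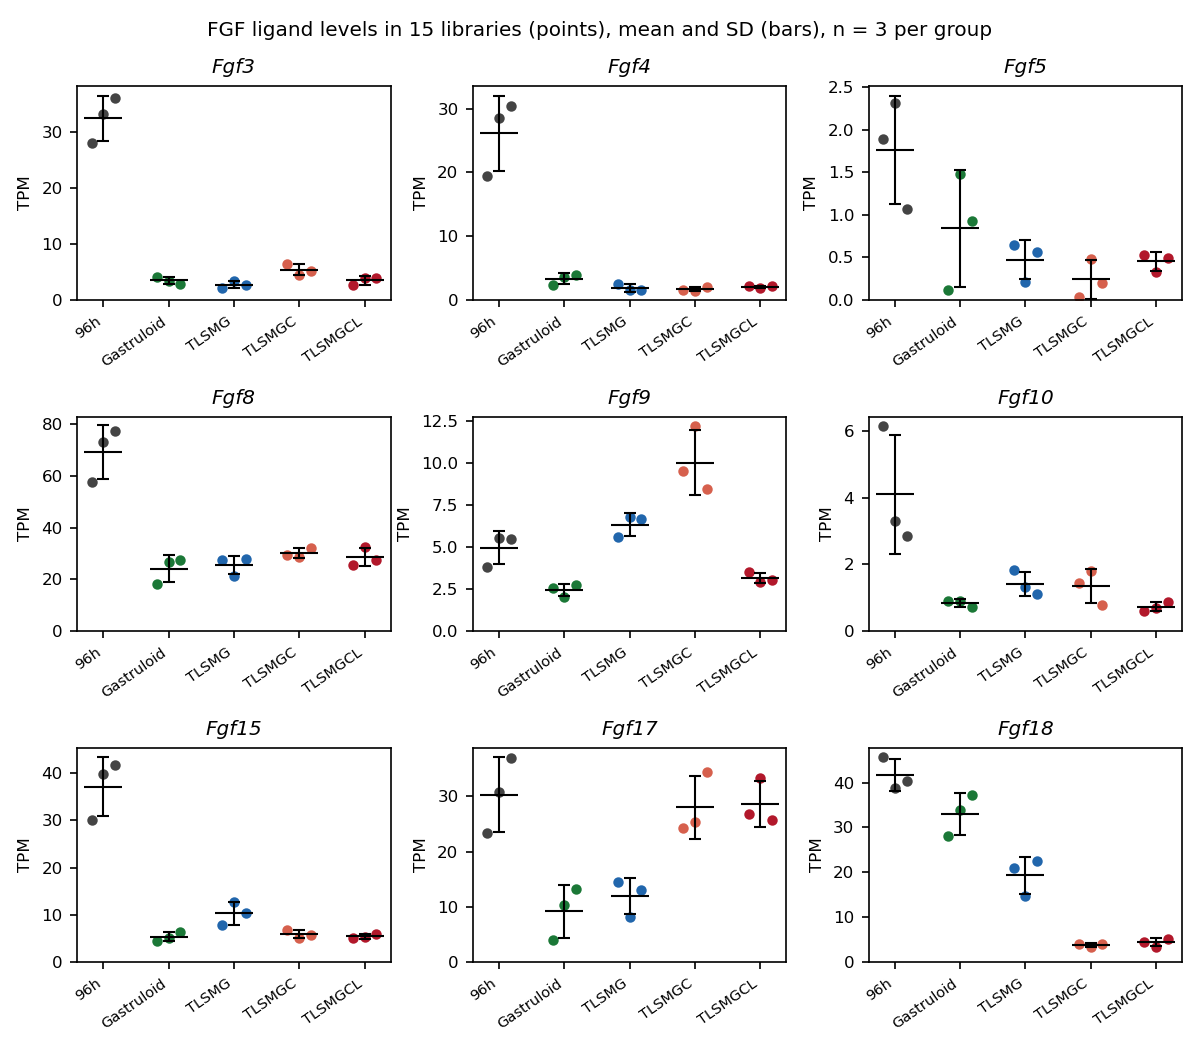
TPM of each FGF ligand (vertical axes, each from 0) in 3 libraries (points) of each of the 5 groups (horizontal axes), with the mean and SD as bars. Fgf3, Fgf4, Fgf8, Fgf10 and Fgf15 have their highest values in the 96h libraries, Fgf17 is high in 96h, TLSMGC and TLSMGCL, Fgf18 is lowest in TLSMGC and TLSMGCL, and Fgf9 is highest in TLSMGC.

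Fgf8, Fgf17 and Fgf18 form one subfamily of closely related proteins, and they showed 3 different patterns. Fgf8, the main ligand of the tailbud and presomitic mesoderm, was measured at 57.6, 73.2 and 77.3 TPM at 96 h. It was at 18, 26.8 and 27.5 in Gastruloid, at 27.3, 21.4 and 27.9 in TLSMG, at 29.3, 28.7 and 32.3 in TLSMGC, and at 25.6, 32.6 and 27.6 in TLSMGCL. All 96h libraries were above all later ones, and Gastruloid replicate 1, which also had the lowest presomitic marker sum of all libraries, was the lowest. The fall from 96 h was 2.88-fold in Gastruloid (log2 difference -1.5 ± 0.16 SE, limma adjusted p = 6.52e-06) and 2.71-fold in TLSMG (-1.40 ± 0.16, adjusted p = 1.09e-05). All 8 ligands passed a limma F test over the 5 groups, as did 73.5% of all genes. Among the 4 groups at 120 h Fgf8 did not pass (limma F test, adjusted p = 0.247), where 62.7% of all genes did. With CHIR, Fgf8 stood at 30.1 ± 1.94 TPM against 25.6 ± 3.61 without it (0.24 ± 0.16, adjusted p = 0.257). These 2 groups did not overlap, as was so for 52.4% of all tested genes.

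Fgf17, expressed in the embryo with Fgf8 in posterior tissue and at the midbrain-hindbrain boundary, was at 23.3, 30.8 and 36.9 TPM at 96 h. Gastruloid had 3.93, 10.4 and 13.2, TLSMG 14.5, 8.22 and 13.1, TLSMGC 24.2, 25.4 and 34.5, and TLSMGCL 26.8, 33.3 and 25.7. The values under CHIR, with and without LDN, lay in the range of the 96h libraries, and those of Gastruloid and TLSMG lay below all of them. Against TLSMG, Fgf17 was 2.35-fold higher in TLSMGC (1.18 ± 0.32, limma adjusted p = 0.0101) and 2.4-fold higher in TLSMGCL (1.22 ± 0.32, adjusted p = 0.00772). In the order of its levels, 96h, TLSMGCL and TLSMGC came first with no neighbours that passed the test (adjusted p = 0.888 and 0.979), then TLSMG and Gastruloid (adjusted p = 0.299 between them). Without TLSMG replicate 2, the lowest of its group, the first difference was 0.96 (adjusted p = 0.0505). The summed presomitic and tailbud markers were higher in the 6 libraries with CHIR, at 201 to 274 TPM, than in TLSMG. The part of these markers in the rise was not tested.

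Fgf18, which acts in skeletal and lung development and is also made in somites and presomitic tissue, was at 45.6, 38.9 and 40.3 TPM at 96 h. Gastruloid had 28.0, 33.8 and 37.3, and TLSMG 20.9, 14.6 and 22.5. With CHIR the level was 4.03, 3.38 and 3.96 in TLSMGC and 4.48, 3.38 and 5.19 in TLSMGCL. The first 3 groups were ordered without overlap, and every library with added CHIR was below every library without it. Of all tested genes, 56.8% did not overlap between Gastruloid and 96h, and 52.3% between TLSMG and Gastruloid. The difference of Fgf18 between Gastruloid and 96h did not pass the test (-0.33, limma adjusted p = 0.119). TLSMG was 1.71-fold lower than Gastruloid (-0.75 ± 0.16, limma adjusted p = 0.00282), and TLSMGC was 5.10-fold lower than TLSMG (-2.07 ± 0.16, adjusted p = 5.52e-07). Neural tube markers had the same order among Gastruloid (233 to 327 TPM), TLSMG (142 to 218) and TLSMGC (42.8 to 52.6), but not at 96 h (54.6 to 67.8), where Fgf18 was highest. The somite marker Pax1 had the same order among Gastruloid, TLSMG and TLSMGC, with means of 61.7 TPM in Gastruloid, 17 in TLSMG, 0.266 in TLSMGC and 0.0362 at 96 h. Tbx18, also a somite marker, was at 9.2 TPM in Gastruloid, 8.03 in TLSMG, 0.493 in TLSMGC and 5.02 at 96 h. Meox1 had that order too, at 566 TPM in Gastruloid, 543 in TLSMG and 229 in TLSMGC. The rest of the somite list did not have it. In Gastruloid, TLSMG and TLSMGC, Tcf15 was at 260, 154 and 322 TPM, Pax3 at 24.8, 41.1 and 40.9, and Uncx at 21, 23.6 and 17.4. The part of the neural and somite markers in the Fgf18 levels was not tested.

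The ratio of Fgf17 to Fgf18 TPM therefore set the CHIR libraries apart. It ran from 0.511 to 0.917 at 96 h, from 0.14 to 0.355 in Gastruloid and from 0.562 to 0.693 in TLSMG. In TLSMGC it was 6.00 to 8.70, and in TLSMGCL 4.95 to 9.87. Fgf18 exceeded Fgf17 in all 9 libraries without added CHIR, and Fgf17 exceeded Fgf18 in all 6 libraries with it.

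**Figure D3:**
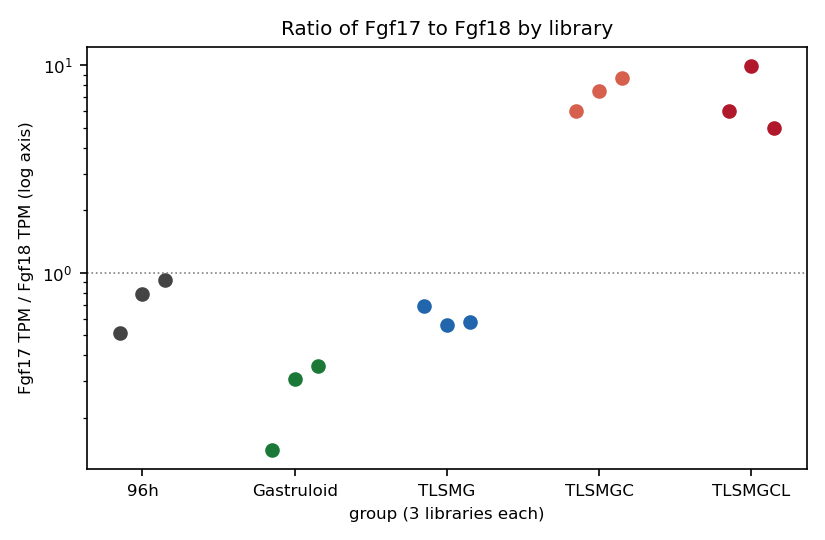
Fgf17 TPM divided by Fgf18 TPM (vertical log axis) in the 3 libraries (points) of each group (horizontal axis), with a dotted line at equal levels. The 9 libraries without added CHIR lie between 0.14 and 0.917 and the 6 libraries with it between 4.95 and 9.87.

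Fgf3, Fgf4 and Fgf15, the neighbours on chromosome 7, were the ligands with the steepest fall in Gastruloid. Fgf3, which acts in the tailbud and in ear and hindbrain development, was at 28.0, 33.1 and 36.0 TPM at 96 h. It was at 4.16, 3.44 and 2.89 in Gastruloid, at 2.17, 3.37 and 2.65 in TLSMG, at 6.48, 4.49 and 5.20 in TLSMGC, and at 2.59, 3.94 and 3.89 in TLSMGCL. The 96h values stood far above the rest, and all 3 TLSMGC values stood above the other 120 h groups. Fgf3 was 9.25-fold lower in Gastruloid than at 96 h (-2.89 ± 0.17, limma adjusted p = 1.81e-08) and 1.97-fold higher in TLSMGC than in TLSMG (0.78 ± 0.17, adjusted p = 0.00269). With LDN added it was 3.47 ± 0.767 against 5.39 ± 1.01 TPM (-0.52 ± 0.17, adjusted p = 0.191).

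Fgf4, made by pluripotent cells, the primitive streak and the presomitic mesoderm, was at 19.4, 28.6 and 30.4 TPM at 96 h. Gastruloid had 2.30, 3.61 and 3.98, TLSMG 2.56, 1.55 and 1.54, TLSMGC 1.5, 1.46 and 2.05, and TLSMGCL 2.11, 1.87 and 2.15. No 120 h library came near the 96h values. The fall was 7.92-fold in Gastruloid (-2.65 ± 0.19, limma adjusted p = 1.62e-07) and 13.9-fold in TLSMG (-3.23 ± 0.19, adjusted p = 2.25e-08). TLSMG was lower than Gastruloid (-0.57 ± 0.19, adjusted p = 0.032), but these groups overlapped, and leaving out Gastruloid replicate 2 or 3 or TLSMG replicate 2 or 3 ended that call (adjusted p = 0.0986, 0.113, 0.105 and 0.109). The 6 pluripotency markers summed to 158 to 271 TPM in the 96h libraries and 221 to 351 in the Gastruloid ones. Within the list, Dppa5a had means of 74.8 TPM at 96 h and 199 in Gastruloid. Pou5f1 went from 116 to 57.8 and Klf4 from 6.11 to 1.72, while Nanog, Zfp42 and Esrrb had higher means in Gastruloid. With Matrigel alone the sums were 104 to 133, with CHIR 35.4 to 65.8 and with CHIR and LDN 59.6 to 74.6. The part of these markers in the Fgf4 levels was not tested.

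Fgf15, the mouse counterpart of human FGF19 and expressed in embryonic neural tissue and in the gut, was at 30.0, 39.8 and 41.7 TPM at 96 h. Gastruloid had 4.53, 5.14 and 6.42, TLSMG 7.87, 12.7 and 10.3, TLSMGC 6.75, 5.09 and 5.80, and TLSMGCL 4.99, 5.30 and 5.93. TLSMG was the highest of the 120 h groups, and its lowest value was above every other 120 h library. It was 1.92-fold higher than Gastruloid (0.82 ± 0.17, limma adjusted p = 0.00231), and TLSMGC was 1.75-fold lower than TLSMG (-0.70 ± 0.17, adjusted p = 0.00497). Fgf3 and Fgf15 thus differed in opposite directions between TLSMG and TLSMGC. Fgf15 overlaps the opposite-strand genes Gm26793, which reached at most 0.782 TPM, and Gm39119, listed at 0, and the strand setting of the counting is not given in the sources used here.

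Fgf9, which signals between epithelium and mesenchyme in many organs, had an order of groups unlike that of the other ligands. It was at 3.82, 5.54 and 5.47 TPM at 96 h, at 2.55, 2.03 and 2.7 in Gastruloid, at 5.55, 6.75 and 6.66 in TLSMG, at 9.52, 12.2 and 8.42 in TLSMGC, and at 3.48, 2.91 and 3.01 in TLSMGCL. The 5 groups did not overlap between neighbours in the order TLSMGC, TLSMG, 96h, TLSMGCL, Gastruloid. Such separation was common among all tested genes. It held for 52.4% between TLSMGC and TLSMG and 58.4% between TLSMG and 96h. Between TLSMGCL and 96h it held for 51.4%, and between TLSMGCL and Gastruloid for 46.3%. Fgf9 was 2.61-fold higher in TLSMG than in Gastruloid (1.10 ± 0.15, limma adjusted p = 0.000225) and 1.59-fold higher in TLSMGC than in TLSMG (0.58 ± 0.15, adjusted p = 0.00718). With LDN it was 3.21-fold lower than in TLSMGC (-1.41 ± 0.15, adjusted p = 0.000418). On the deposited coverage values scaled per library, without a filter on low values, the LDN difference was -0.47 (adjusted p = 0.00176). Coverage is on a lower scale than TPM, so the size of that difference cannot be set beside -1.41. Before scaling, the coverage of Fgf9 was 2.09, 3.78 and 2.29 in TLSMGC and 1.04, 0.808 and 0.653 in TLSMGCL. Fgf9 has 4 annotated transcripts of 321 to 3593 bases, the tables do not say which of them the reads came from, and a pseudogene within it, Gm17109, was listed at 0. In the order of levels, neither TLSMG and 96h (0.31, adjusted p = 0.108) nor TLSMGCL and Gastruloid (0.27, adjusted p = 0.174) differed beyond their spread by the test.

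Fgf10, a mesenchymal ligand of lung and limb bud outgrowth, was low, at 6.14, 3.31 and 2.85 TPM at 96 h. Gastruloid had 0.904, 0.908 and 0.711, TLSMG 1.82, 1.32 and 1.12, TLSMGC 1.44, 1.80 and 0.789, and TLSMGCL 0.606, 0.698 and 0.864. The 96h libraries were above all others, with replicate 1 the highest. The fall was 4.87-fold in Gastruloid (-1.42 ± 0.22, limma adjusted p = 0.000157) and 2.88-fold in TLSMG (-1.03 ± 0.22, adjusted p = 0.00158). No difference among the 120 h groups passed the F test (adjusted p = 0.146). An antisense gene that overlaps Fgf10, Gm16263, was listed at 0.

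Fgf5, a marker of the epiblast after implantation, was low, with 1.89, 2.31 and 1.07 TPM at 96 h and 0.0388 to 1.48 at 120 h. Gastruloid replicate 2, at 1.48, was the only 120 h library above the lowest 96h value. When the filter on low values was dropped, Fgf5 was lower than at 96 h in TLSMG (-0.89 ± 0.27, limma adjusted p = 0.0269) and in TLSMGC (-1.14 ± 0.27, adjusted p = 0.00838), and in Gastruloid the difference was -0.63 ± 0.27 (adjusted p = 0.121).

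With Matrigel at 120 h, 4 of the 8 tested ligands differed between TLSMG and Gastruloid: Fgf9 and Fgf15 were higher, and Fgf18 and Fgf4 lower. Of all genes, 39.3% were called, 31.5% higher and 7.87% lower. That split depends on the scaling, since the median of all genes was 0.13 on the TPM scale and -0.02 after median-of-ratios scaling, which gave 2744 genes higher and 2584 lower in place of 4497 and 1125. The same 4 ligands were called after it. Endothelial markers were at 217 to 264 TPM in TLSMG and 27.8 to 36.1 in Gastruloid, and their part in these differences was not tested.

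With CHIR in Matrigel, 5 of 8 ligands differed between TLSMGC and TLSMG: Fgf17, Fgf3 and Fgf9 were higher, and Fgf18 and Fgf15 lower. The background was 40.9% of genes, 10.4% higher and 30.5% lower, or 2744 higher and 2560 lower after median-of-ratios scaling in place of 1490 and 4352. The median of the 8 ligands was 0.09, beside -0.16 over all tested genes, which became 0 after that scaling, and the same 5 ligands were called. In TLSMGCL against TLSMG, 1 ligand, Fgf17, was higher and 3, Fgf18, Fgf9 and Fgf15, were lower (9.31% and 35.6% of genes, 44.9% either way). There, median-of-ratios scaling gave 2839 genes higher and 2736 lower in place of 1330 and 5086. The TLSMG libraries are shared by the 2 comparisons. Endothelial markers summed to 217 to 264 TPM without CHIR and to 20.8 to 65.7 with it, and TLSMGCL had 10.2 to 17.2 TPM. Presomitic marker sums were higher and neural tube marker sums lower with CHIR, with the values given above. Within the presomitic list Nkx1-2 was not higher in TLSMGC, at 51 ± 6.87 TPM in TLSMG and 49.1 ± 12.4 in TLSMGC. The part of these markers in the ligand differences was not tested.

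When LDN was added to CHIR, 1 of 8 ligands differed: Fgf9 was lower. This stood beside a background of 1.18% of genes, 0.406% higher and 0.777% lower, or 104 higher and 101 lower after median-of-ratios scaling in place of 58 and 111. Fgf3 and Fgf9 were the only ligands whose groups did not overlap here, where 15.8% of all genes had groups that did not overlap. Endothelial markers summed to 10.2 to 17.2 TPM with LDN and 20.8 to 65.7 without. TLSMG had higher sums than TLSMGC, at 217 to 264 TPM, but less Fgf9 (6.32 ± 0.668 against 10 ± 1.94 TPM). Gastruloid was lower than TLSMG in both, at 27.8 to 36.1 and 2.42 ± 0.351 TPM. The part of the endothelial markers in the Fgf9 difference was not tested.

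**Figure D4:**
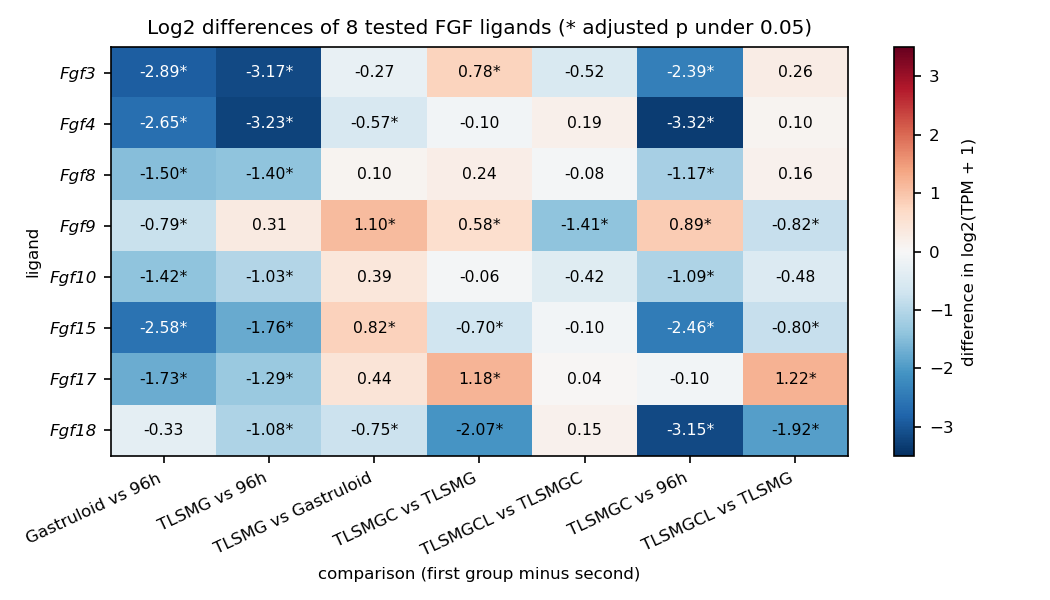
Log2 differences of the 8 tested FGF ligands (rows) in 7 comparisons (columns, first group minus second), with red for higher, blue for lower and a star for an adjusted p under 0.05. The first, second and sixth columns, which compare with 96 h, are mostly blue, and the fourth column, added CHIR, holds stars in both directions, from -2.07 for Fgf18 to 1.18 for Fgf17.

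Levels of the ligands across the 15 libraries fell into patterns that other genes shared. Pearson r of log2(TPM + 1) is given as a description, since libraries of a group are not independent conditions. In addition, 73.5% of all tested genes passed the limma F test over the 5 groups. Among 10909 genes with a mean of at least 5 TPM, the closest to Fgf8 was Spry4 (r = 0.967), an FGF-induced inhibitor of the pathway, followed by Peli3 and Mesp2 (0.966 and 0.963), the latter a presomitic factor of somite formation. Closest to Fgf4 were Ptgds (0.987), the Nodal antagonist gene Lefty2 (0.984) and Foxh1 (0.978), a partner of SMAD proteins in Nodal signalling. Fgf15 was followed most closely by Spred2 (0.983), another inhibitor of the pathway, Gpc6 (0.98) and Nfatc1 (0.975).

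Closest to Fgf3 were Necab2 (0.98), Tcfl5 (0.972) and Nsmce3 (0.97), and closest to Fgf10 were Emb (0.941), Ripk2 (0.935) and Tmc7 (0.923). For Fgf17 the list was led by Ptk7 (0.964), a planar cell polarity co-receptor, then Gamt (0.958) and Nabp1 (0.941). Fgf18 tracked Arg1 (0.995), the urea cycle arginase, Prickle1 (0.986), also of planar cell polarity, and Vstm2l (0.979). Fgf9 had the least close match beyond its first, with Phf10 at 0.951, Ube3a at 0.868 and Rhbdd1 at 0.863. Among the ligands themselves, Fgf3 and Fgf4 had r = 0.92, Fgf3 and Fgf8 0.92, and Fgf17 and Fgf18 -0.40.

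Other members of the Fgf gene family were barely present, apart from Fgf13. Of 13 further Fgf genes, 1, Fgf13, reached a mean of 1 TPM. Fgf13, which encodes an intracellular protein that binds sodium channels rather than a secreted ligand, was at 20.3 ± 2.77 TPM at 96 h, 6.92 ± 0.135 in Gastruloid, 6.98 ± 0.647 in TLSMG and 10.5 ± 1.41 in TLSMGC. It was lower in Gastruloid than at 96 h (-1.42 ± 0.12, limma adjusted p = 9.13e-07) and higher in TLSMGC than in TLSMG (0.52 ± 0.12, adjusted p = 0.0044).

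Among the receptors, 4 of 7 genes (Fgfr1 to Fgfr4, the decoy-like Fgfrl1, and the klotho co-receptors Kl and Klb) were tested. Fgfr1, the main receptor of mesoderm, was the most abundant, at 256, 167 and 158 TPM at 96 h, 89.5, 99.4 and 125 in Gastruloid, and 90.5, 72.4 and 74.6 in TLSMGC. It was lower in Gastruloid than at 96 h (-0.86 ± 0.19, limma adjusted p = 0.00283), and its difference between TLSMGC and TLSMG was -0.45 ± 0.19 (adjusted p = 0.0776). Fgfr2, typical of epithelia, was at 24.2, 40.3 and 32.5 TPM in TLSMG and at 8.94, 9.30 and 7.61 in TLSMGC. Its groups did not overlap, as was so for 52.4% of all tested genes, and the fall was -1.77 ± 0.23 (adjusted p = 5.47e-05). Fgfr3 was low, at 2.94 ± 1.21 TPM in TLSMG and 0.787 ± 0.35 in TLSMGC (-1.12 ± 0.32, adjusted p = 0.0126, and -0.88 with an adjusted p of 0.0627 without TLSMG replicate 2), and Fgfr4 was not tested, at 0.0554 to 0.586 TPM in group means.

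In all, 3 of 4 tested receptors fell with CHIR, beside 30.5% of all genes. After median-of-ratios scaling 2 of 4 fell, beside 17.9%. Fgfr2 was higher in Gastruloid than at 96 h (0.73 ± 0.23, limma adjusted p = 0.0233), but leaving out 96h replicate 2 or 3 or Gastruloid replicate 1 ended that call (adjusted p = 0.0941, 0.0986 and 0.0942). With LDN, Fgfrl1 was the receptor called, at 14.6 ± 1.07 against 20.4 ± 2.67 TPM (-0.46 ± 0.1, adjusted p = 0.0391). That call was lost after median-of-ratios scaling (adjusted p = 0.0868) and on leaving out any of TLSMGC replicates 2 and 3 and the 3 TLSMGCL libraries (adjusted p = 0.0613 to 0.146). Klb, a co-receptor of the endocrine FGFs and named here after its values were seen, was at 2.36 ± 0.51 TPM in Gastruloid and 0.013 ± 0.0225 at 96 h, under the filter on low values.

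Of 14 feedback and target genes (Spry1, Spry2, Spry4, Spred1, Spred2, Dusp4, Dusp6, Etv1, Etv4, Etv5, Il17rd, Flrt3, Egr1 and Ier3), 9 fell and 2 rose in Gastruloid against 96h, with a median of -0.57. Of all genes, 20.5% fell and 20.8% rose. Spry4 showed the largest difference, from 20.3, 22.4 and 23.3 TPM at 96 h to 2.47, 4.13 and 4.94 in Gastruloid (-2.28 ± 0.16, limma adjusted p = 1.13e-07). Dusp6, a phosphatase of ERK, went from 135, 155 and 165 TPM to 90.2, 112 and 112 (-0.53 ± 0.11, adjusted p = 0.00159). Etv4, an ETS transcription factor downstream of the pathway, went from 93.3 ± 15.4 to 67.5 ± 7.98 TPM (-0.46 ± 0.15, adjusted p = 0.0234), a call that ended when 96h replicate 2 or 3 or Gastruloid replicate 1 was left out (adjusted p = 0.057, 0.105 and 0.101). In TLSMG against 96h 5 fell and 3 rose (12.5% and 33.5% of all genes), and 7 fell and 2 rose after median-of-ratios scaling (23.4% and 22%).

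In TLSMG against Gastruloid, 7 of the 14 genes were higher, as were 31.5% of all genes. They were led by the immediate early gene Egr1 (4.55 ± 1.72 against 2.17 ± 1.07 TPM, 0.82 ± 0.3, limma adjusted p = 0.0425). After median-of-ratios scaling 3 were higher and 1 lower (19.2% and 18.1% of all genes), with Egr1 no longer called (adjusted p = 0.0847). The Egr1 call also ended without Gastruloid replicate 1 or 2 or TLSMG replicate 1 or 2 (adjusted p = 0.18, 0.0853, 0.165 and 0.0694).

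With CHIR, 8 of these 14 genes fell and 1, Flrt3, rose, where 30.5% of all genes fell and 10.4% rose. Spry1 showed the largest difference, at 23.7, 26.0 and 25.2 TPM in TLSMG and 7.14, 10.4 and 9.24 in TLSMGC (-1.40 ± 0.16, limma adjusted p = 1.77e-05). Dusp6 went from 117, 96.3 and 86.8 TPM in TLSMG to 65.7, 66.3 and 71.7 in TLSMGC (-0.54 ± 0.11, adjusted p = 0.00149). Spry4 did not pass the test, at 5.55 ± 0.149 against 5.66 ± 0.776 TPM (-0.02 ± 0.16, adjusted p = 0.945), nor did Etv4, at 56.0 ± 7.91 against 54.8 ± 5.12 (0.02 ± 0.15, adjusted p = 0.905). The median of the list was -0.43, beside -0.16 over all tested genes, and after median-of-ratios scaling 7 fell and 1 rose (17.9% and 19.2% of all genes). After correction for GC content and length 4 fell and 1 rose, with a median of -0.09, and the share of all genes is not given here.

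Flrt3, a membrane protein that binds FGF receptors, went against the list, at 16.8 ± 1.28 TPM at 96 h, 34.1 ± 1.42 in Gastruloid, 56.1 ± 3.21 in TLSMG and 86.3 ± 12.3 in TLSMGC. It was higher in TLSMGC than at 96 h (2.29 ± 0.12, limma adjusted p = 7.65e-09). With LDN added to CHIR, limma called 0 of the 14 genes, and 3 had an unadjusted p under 0.05, and no other tool was run. Dusp6 was then at 94.7, 94.2 and 93.4 TPM, above the 3 values without LDN (0.47 ± 0.11, adjusted p = 0.0624).

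**Figure D5:**
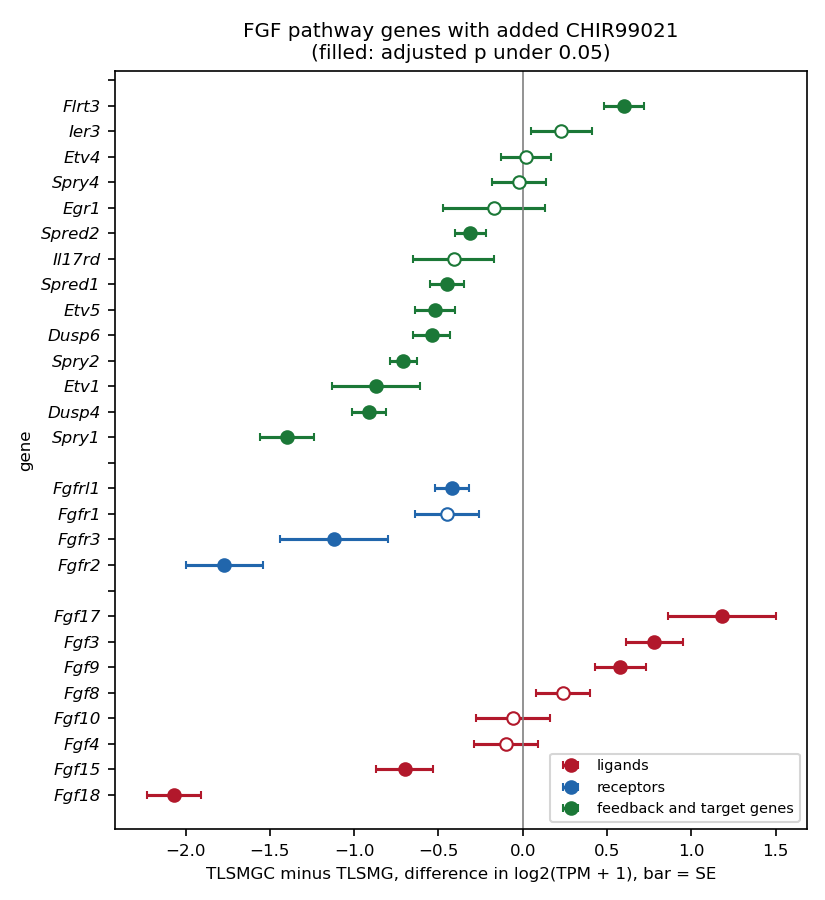
Difference in log2(TPM + 1) between TLSMGC and TLSMG (horizontal axis, with SE bars) for the tested ligands, receptors and feedback and target genes (vertical axis), filled where the adjusted p is under 0.05. Filled ligands lie on both sides of 0, from -2.07 for Fgf18 to 1.18 for Fgf17, while the 3 filled receptors and 8 of the 9 filled feedback genes lie below 0.

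Of 12 genes for heparan sulfate enzymes and carriers, 3 rose and 3 fell in Gastruloid against 96h, where 20.8% of all genes rose and 20.5% fell. In TLSMGC against TLSMG 1 rose and 6 fell, beside 10.4% and 30.5% of all genes. The largest difference in both was that of Sulf1, which removes sulfate groups from heparan sulfate, at 125 ± 6.88 TPM at 96 h, 48.7 ± 5.11 in Gastruloid, 57.2 ± 2.49 in TLSMG and 31.7 ± 1.15 in TLSMGC. Its differences were -1.35 ± 0.09 and -0.83 ± 0.09 (limma adjusted p = 1.09e-07 and 1.56e-05). With LDN, 1 gene was called, the chain polymerase Ext1 (-0.35 ± 0.08, adjusted p = 0.0431), and leaving out any of the 6 libraries ended that call (adjusted p = 0.0516 to 0.139). Of 9 adaptors and kinases, 3 fell in Gastruloid against 96h and 5 after median-of-ratios scaling, beside 20.5% and 22.6% of all genes. They were led by Mapk3, the ERK1 kinase (112 ± 2.28 against 168 ± 5.65 TPM, -0.58 ± 0.07, adjusted p = 1.11e-05). Of these 9, 1 rose and 3 fell in TLSMGC against TLSMG, beside 10.4% and 30.5% of all genes. After median-of-ratios scaling 2 were higher and 1 lower, beside 19.2% and 17.9%. The counts were likewise 2 and 1 after correction for GC content and length, where the share of all genes is not given here. The adaptor Frs2 showed the largest difference between TLSMGC and TLSMG (-0.40 ± 0.1, adjusted p = 0.00761). After correction for GC content and length the Frs2 difference was -0.07 (adjusted p = 0.332).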

How the data were processed

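The deposited tables are StringTie gene abundance tables, 1 for each library and none pooled, per the file headers. The deposited TPM values, summing to 1000000 in each library, were used for all results. The deposited FPKM and coverage (mean read depth) values, per the file headers, served alternatives and checks of depth. Cutadapt 2.4, STAR 2.7.3a, StringTie 2.0 and build mm10 are named, per the submitters' processing notes. Repeated lines of a gene ID (7 to 13 per table) were summed. Single-cell and NanoString samples were not analysed here.

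Values were taken as log2(TPM + 1), genes with a mean of at least 1 TPM over 15 libraries were kept, and all 5 groups entered 1 limma 3.58.1 fit (R 4.3.3) with a mean trend. Two-sided p-values were adjusted by Benjamini-Hochberg within each of 10 pairs of groups, of which 7 were main comparisons, with a threshold of 0.05. A log2 difference is on the log2(TPM + 1) scale and understates changes of low genes, and fold values are ratios of mean TPM. The script was tested on simulated data. No read counts were used, so no counting interval is given. Median-of-ratios scaling, FPKM, other pseudocounts and filters, 2-group fits, GC correction, a replicate block and leaving out each library were alternatives.

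Members and lists were chosen with earlier results of these data known. The text names the ligands, Fgfr1 to Fgfr4, Dusp6, Spry4, Etv4, the gene of each list with the largest called difference, and the 3 genes most like each ligand.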

Additional observations from a re-analysis of the deposited data

How the results depend on the processing

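In limma, the direction of every ligand difference that passed the test was kept under all alternatives. Of the counts of ligands called, 1 moved: for TLSMGCL against TLSMGC, coverage scaled per library in place of TPM, chosen after seeing the data, gave 0 called, because Fgf9 fell under its filter and 6 ligands were tested; without that filter Fgf9 was called. Leaving out each library in turn gave 7 to 7 ligands for Gastruloid, TLSMG and TLSMGC against 96h, 3 to 4 for TLSMG against Gastruloid, 4 to 5 for TLSMGC against TLSMG, 1 to 1 for TLSMGCL against TLSMGC and 4 to 4 for TLSMGCL against TLSMG. The replicate block changed no ligand count (5 in TLSMGC against TLSMG); same-numbered libraries did not deviate together (mean r of -0.07 to 0.04), so the numbers were not taken as pairs. Fgf4 in TLSMG against Gastruloid was also not called without the filter (adjusted p = 0.0772) or with 2 groups (0.0622). Fgf18 in Gastruloid against 96h passed after GC correction (-0.46, adjusted p = 0.0344), and Fgf10 in TLSMGCL against TLSMG, at -0.48 (adjusted p = 0.0831), passed with a pseudocount of 0.1 (-0.87, adjusted p = 0.0418) or 2 groups (adjusted p = 0.0381); the cause was not tested. Over all genes, TLSMG against Gastruloid went from 5622 to 3449 calls with GC correction, and TLSMGCL against TLSMGC from 169 to 46 with 2 groups, 264 with GC correction, and 56, 70 and 78 without TLSMGC replicate 2, TLSMGCL replicate 1 and TLSMGCL replicate 3. Low read depth limits Fgf9, Fgf10 and Fgf5.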

Other observations

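The 3 ligands of the Fgf8 subfamily each lie next to a nucleophosmin gene in the tables' coordinates, a pairing looked at after the annotation was seen. Npm3 lies 4819 bases from Fgf8, Npm2 5034 bases from Fgf17 and Npm1 4887 bases from Fgf18. Npm1, an abundant nucleolar protein of ribosome assembly, was at 3570 ± 109 TPM in TLSMG and 4580 ± 66.2 in TLSMGC (SD, n = 3; 0.36 ± 0.05 SE, limma adjusted p = 6.6e-05), while its neighbour Fgf18 was lower in TLSMGC. Npm3 was at 189 ± 19.5 TPM in TLSMG and 239 ± 22.8 in TLSMGC (0.33 ± 0.09, adjusted p = 0.00886). Npm2, known from oocytes, had group means of 0.127 to 0.525 TPM and was not tested. On its other side, Fgf17 lies 155 bases from Dmtn, which encodes an actin-bundling protein and was at 4.75 ± 1.24 TPM in TLSMG and 5.12 ± 0.641 in TLSMGC (0.11 ± 0.2, adjusted p = 0.696), where Fgf17 was higher in TLSMGC.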
